A study of Mus musculus with 26 samples.

Results

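Microglia that lacked progranulin were compared with microglia that had it, in mice that were heterozygous for Tmem106b in both groups. The comparison uses 7 of the 26 libraries of the series: 3 labelled TMEM HET GRN KO (heterozygous for Tmem106b, Grn knocked out) and 4 labelled TMEM HET GRN WT (heterozygous for Tmem106b, wild-type Grn). The libraries were taken by their genotype label, while the comparison was picked with earlier results of these data known. The main fit held all 26 libraries in 7 genotype groups, so its spread and its sex and dissection covariates rest on the other genotypes too. The other groups were labelled TMEM KO GRN WT, TMEM HET GRN HET, TMEM WT GRN KO, TMEM WT GRN HET and TMEM WT GRN WT. Poly(A) RNA of cells labelled as microglia was amplified with a low-input kit and sequenced, and no treatment is named. Libraries KO 1, KO 2, WT 1 and WT 2 were female with the dissection labelled Entire, and KO 3, WT 3 and WT 4 were male with the dissection labelled Hemi, so that sex and dissection cannot be told apart within these 7. The meaning of Entire and Hemi, the design of the knockout alleles, the age of the mice, the isolation of the cells and whether each library is 1 animal are not given in the sources used here. All p-values therefore measure the spread between libraries, which may be technical.

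Progranulin is secreted, taken up again through sortilin or together with prosaposin, and cut in lysosomes into granulin peptides that bear on the activity of lysosomal enzymes. TMEM106B sits in the membranes of lysosomes and late endosomes. Human carriers of GRN loss-of-function mutations develop frontotemporal dementia, and common TMEM106B variants modify that risk, which is why the 2 genes are studied together. Microglia, the macrophages of the brain parenchyma, express Grn strongly. When challenged, they can leave a resting (homeostatic) program, held by colony-stimulating factor, TGF-beta and the factor SALL1, for a program of lipid handling and phagocytosis known as disease-associated microglia.

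Grn (chr11:102430315-102437048, GRCm38, plus strand) was read at 0.0206, 1.64 and 8.04 CPM (counts scaled to a common library total) in KO 1, KO 2 and KO 3 and at 2915, 4048, 2075 and 2881 CPM in WT 1 to WT 4. The fitted log2 fold change was -9.99 ± 1.80 (SE, n = 3 and 4), with an adjusted p of 0.0029 by edgeR's quasi-likelihood test. The 7 libraries match their Grn labels, although KO 3 kept 469 reads of the gene against 1 in KO 1. Tmem106b (chr6:13069759-13089269, plus strand) was at 51.6, 55.2 and 63.3 CPM in the KO libraries and at 71.8, 46.3, 83.4 and 39.1 CPM in the WT libraries. The ranges overlap (log2 fold change -0.06, adjusted p = 0.88), and the sign of this small value turned in some settings given at the end.

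The libraries held 47.5 to 58.3 M counts, so depth differed little. Their composition differed more. Microglia markers (12 genes, among them Tmem119, Csf1r and C1qa) summed to 39179, 27214 and 11444 CPM in KO 1 to KO 3 and to 51524, 58378, 39731 and 51551 CPM in WT 1 to WT 4, the highest of the 15 marker sums in every library, and all 12 were read in each library. Neuron markers (12 genes, all read in each library) summed to 721, 2868 and 8993 CPM in the KO libraries and to 73.5, 102, 869 and 1694 CPM in the WT libraries. KO 3 thus had the most neuronal and the least microglial RNA, while KO 1 had less neuronal RNA than WT 3 and WT 4. Oligodendrocyte markers overlapped between the groups, from 735 to 2566 CPM in KO and from 556 to 26664 CPM in WT, with WT 2 below every KO library. They were highest in WT 3, which also led in astrocyte (1513 CPM) and endothelial (785 CPM) markers. Markers of border macrophages stood at 460 to 912 CPM in KO and 458 to 1217 CPM in WT, and those of monocytes at 73 to 193 CPM and 76 to 193 CPM. Because these are shares of one library, fewer cells of a type and less RNA per cell cannot be told apart in any value below. Apart from the fits without KO 3 and with the neuron marker sum as a covariate, the part of these differences in the results was not tested.

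**Figure D1:**
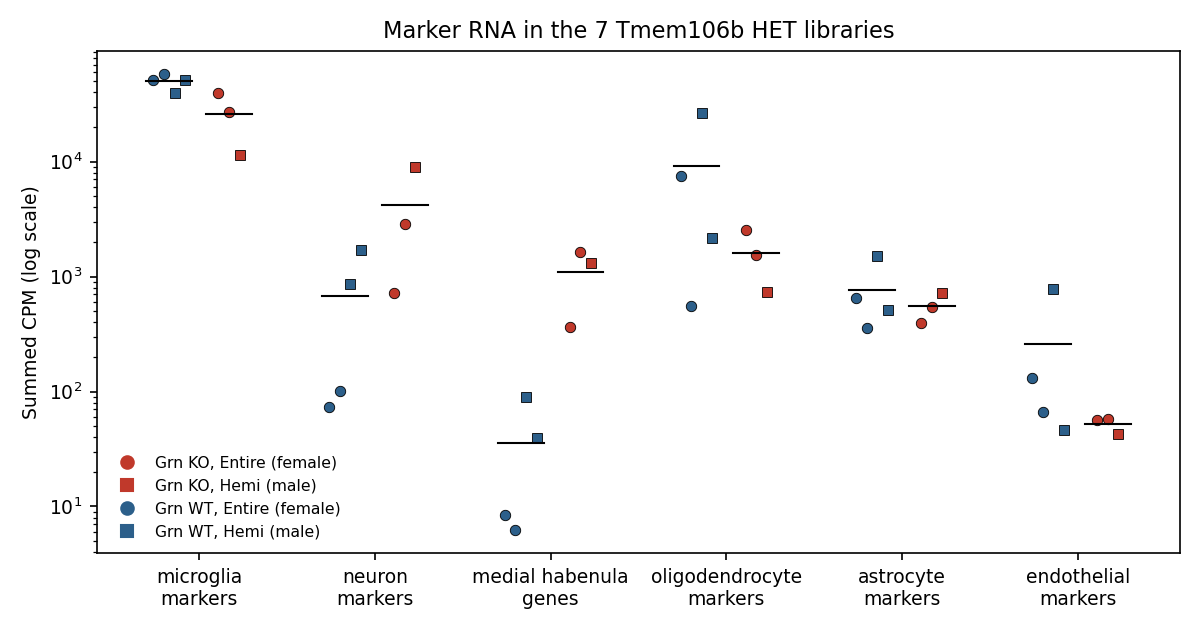
Summed CPM of 6 marker lists (log axis) in each Tmem106b HET library, Grn WT in blue and Grn KO in red, circles for female Entire and squares for male Hemi libraries, lines for group means. Medial habenula genes are higher in every KO library, neuron markers overlap between the groups because KO 1 lies at 721 CPM, and KO 3 has the lowest microglia sum.

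Of 21371 genes tested, 1799 were higher (8.42% of genes) and 1294 lower (6.05%) in Grn KO at an adjusted p under 0.05, 14.5% in either direction. All 3 KO libraries lay above all 4 WT libraries for 9.85% of genes and below them for 9.37%. Counts of list members given below are to be read beside these shares of all genes. The count rests on the covariates: with sex and dissection left out it was 154 higher and 70 lower (0.721% and 0.328% of genes). With the log2 neuron marker sum as a further covariate it was 4 higher and 0 lower by edgeR (0.0187% and 0%), the 4 being Apoe, Gpx3, Gpnmb and Lgals3, and 1881 genes had an unadjusted p under 0.05. The 4 female Entire libraries by themselves gave 0 calls by edgeR, with a smallest adjusted p of 0.103 and 4179 genes at an unadjusted p under 0.05. A fit of the Entire libraries of all genotypes, which sets KO 1 and KO 2 against WT 1 and WT 2, gave 761 higher (3.56%) and 711 lower (3.33%). Without KO 3 the calls were 837 higher and 258 lower, and 1047 of the 3093 calls were among them with the same sign. No gene passed in all 21 settings; 125 of the genes called, 79 higher and 46 lower, passed in the 18 settings that called more than 4 genes.

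**Figure D2:**
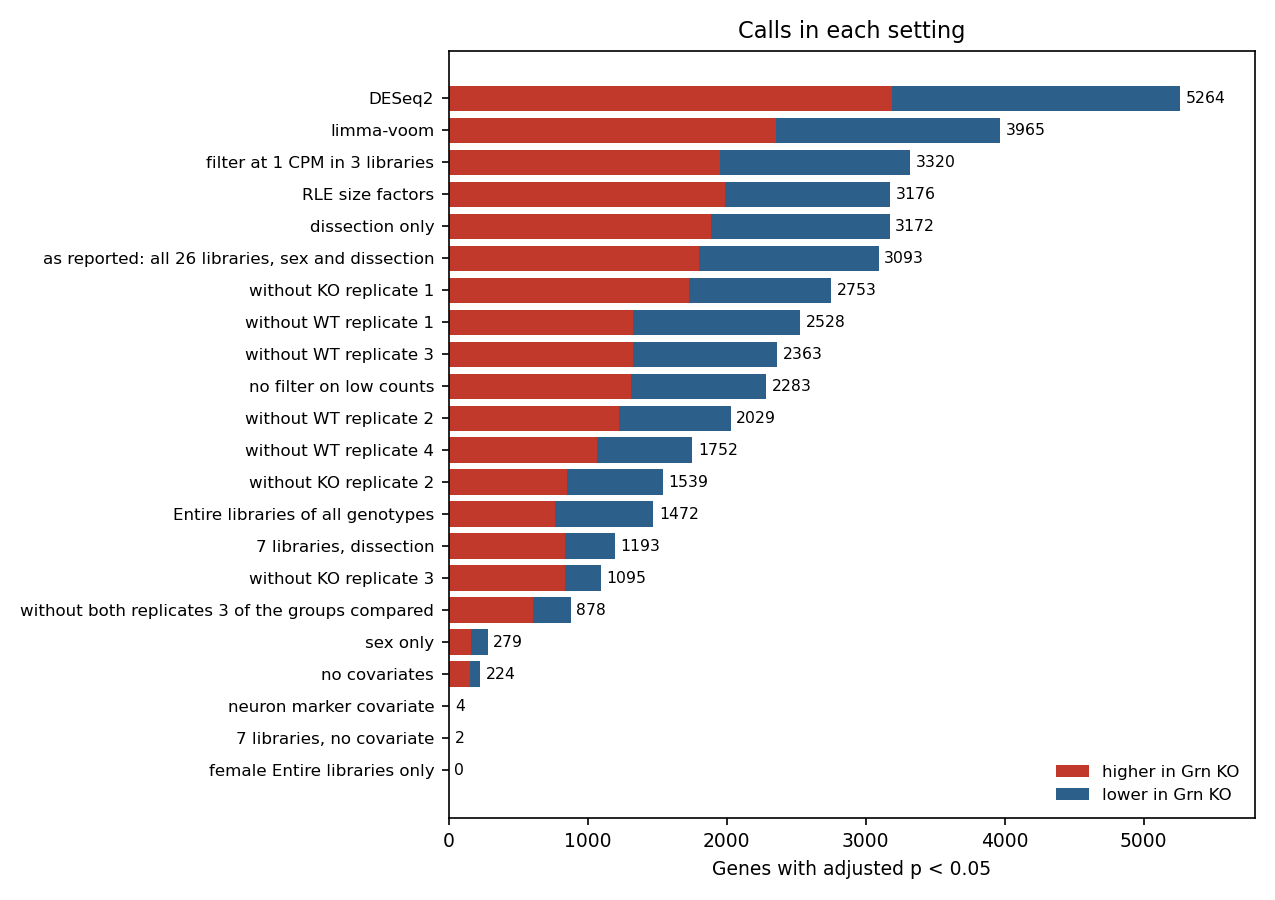
Genes past an adjusted p of 0.05 (horizontal axis) in each setting of the test, red for higher and blue for lower in Grn KO. The 3093 calls as reported fall to 224 without covariates and to 4 with the neuron marker sum as a covariate.

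Lgals3, Gpx3 and Gpnmb, which macrophages express in lipid-rich or damaged tissue, rose and were among the 20 risers of smallest p. Gpnmb (chr6:49036546-49070929), a glycoprotein of melanosomes and lysosomes, was at 13189, 9117 and 2387 CPM in KO 1 to KO 3 and at 28.1, 12.6, 1.43 and 2.86 CPM in WT 1 to WT 4. Its log2 fold change was 9.51 ± 1.18 (adjusted p = 0.00057). Every KO library stood far above every WT library, the Entire libraries highest in each group. Gpx3, a secreted glutathione peroxidase, was at 1853, 1110 and 294 CPM against 40.9, 30.7, 12.9 and 17.5 CPM, a log2 fold change of 5.31 ± 0.61 (adjusted p = 0.00035). Lgals3, the galectin that marks damaged lysosomes, was at 1008, 600.4 and 257 CPM against 52.9, 48.8, 19.9 and 22.1 CPM. Its log2 fold change of 3.96 ± 0.41 had the smallest adjusted p in the comparison, 0.00013. In these genes the KO values fall in the same order as the microglia marker sums, from KO 1 to KO 3, and opposite to the neuron marker sums.

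**Figure D3:**
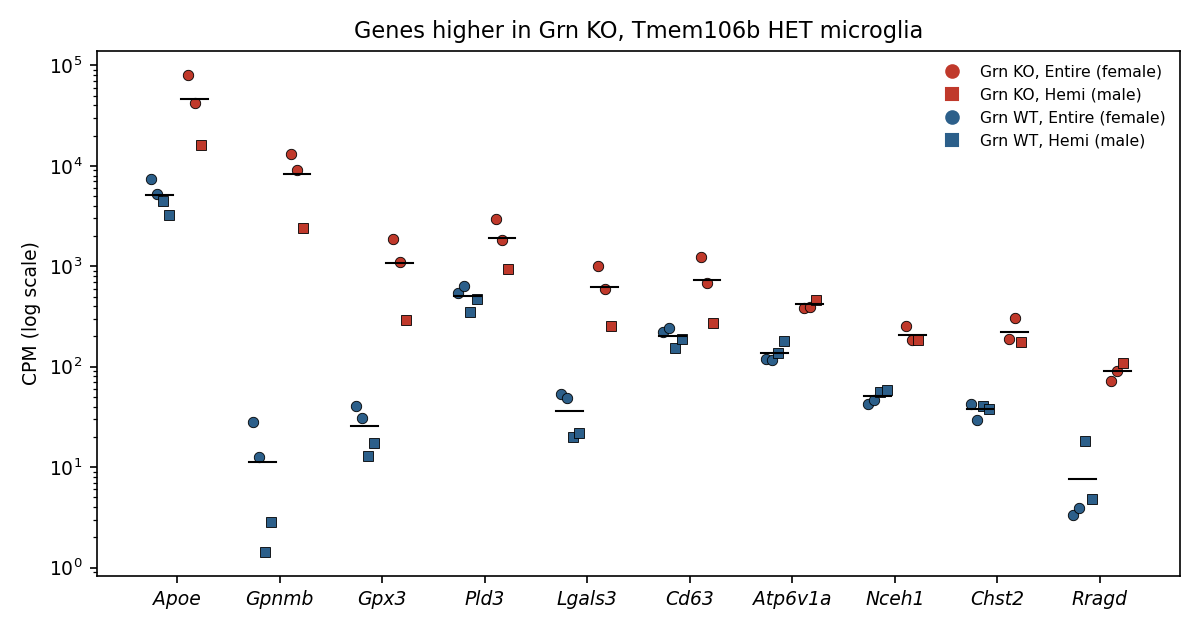
CPM (log axis) of 10 genes that passed as higher in Grn KO, symbols as in the plot of marker RNA. Microglial genes such as Gpnmb, Apoe and Gpx3 are highest in KO 1 and lowest in KO 3, yet KO 3 stays above every WT library for all 10 genes.

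Lysosomal biogenesis is driven by the MiT/TFE factors (MITF, TFEB, TFE3), which the Rag GTPases and folliculin hold at the lysosome and which bind the E-box letters CACGTG in promoters of lysosomal genes. Those letters, which read the same on both strands, lie within 250 bases before the start of 6.86% of the 27025 genes in the RefSeq promoter table (GRCm38.p6). They lie before 24.14% of 29 lysosomal hydrolase genes found in that table. For lysosomal membrane genes the share was 25% of 24, and for vacuolar ATPase genes 11.11% of 18. All lists were chosen with earlier results of these data known. Among lists of other roles the share was 23.53% of 17 cholesterol synthesis genes and 17.39% of 23 glycolysis genes. It was 4.55% of 22 proteasome genes and 0% of 15 TGF-beta and BMP genes. Of the 10 osteoclast-type genes found there, 0 hold these letters in this window. Below are the stretches around the letters, in capitals, in 4 genes that rose, read 5′ to 3′ on the gene's strand. Those of lysosomal roles are the calcium channel Mcoln1 (chr8:3500418-3500509, plus strand), alpha-galactosidase A (Gla, chrX:134601164-134601255, minus strand) and the ATPase subunit Atp6v1a (chr16:44139355-44139420, minus strand). The other is the cholesteryl ester hydrolase Nceh1 (chr3:27182948-27183003, plus strand), a gene of lipid handling.
Mcoln1: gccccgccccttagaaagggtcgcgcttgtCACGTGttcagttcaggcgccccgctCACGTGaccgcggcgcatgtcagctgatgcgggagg
Gla: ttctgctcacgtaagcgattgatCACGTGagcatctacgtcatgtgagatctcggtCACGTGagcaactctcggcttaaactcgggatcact
Atp6v1a: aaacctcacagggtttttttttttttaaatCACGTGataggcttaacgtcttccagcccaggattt
Nceh1: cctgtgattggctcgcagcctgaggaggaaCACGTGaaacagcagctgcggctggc

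The letters occur 2 times in the Mcoln1 and Gla stretches and 1 time in the others, with the first base 71 and 45 bases before the start in Mcoln1, 227 and 194 in Gla, 131 in Atp6v1a and 26 in Nceh1. Genes with the letters did not all rise: of 7 such hydrolase genes 1 rose and 1 fell, of 6 membrane protein genes 2 rose and 1 fell, of 4 cathepsins 0 rose and 1 fell by edgeR, and of 2 ATPase genes 1 rose. A match describes the sequence and is no evidence that a factor binds there. Of the 16 MiT/TFE factors and Rag regulators, 4 rose and 2 fell, with a median log2 fold change of 0.18 beside -0.02 for all genes. Rragd, a Rag GTPase that is itself a target of these factors, was at 71.5, 91.0 and 109 CPM in KO 1 to KO 3 against 3.37, 3.92, 18.3 and 4.82 CPM in WT 1 to WT 4. Its log2 fold change was 4.13 ± 0.66 (adjusted p = 0.0019), and the groups do not overlap. Rragb, a close relative of Rraga, rose too, but KO 1 (37.8 CPM) lay below WT 3 (50.3 CPM), and its values follow the neuron marker sums. Rraga and the Ragulator subunit Lamtor5 rose by 0.84 and 0.59. Tfe3 fell, from 160 to 275 CPM in WT to 153, 137 and 49.4 CPM in KO (log2 fold change -1.21, adjusted p = 0.014). Folliculin fell too (Flcn, -0.63, adjusted p = 0.012). Without KO 3 neither passed by edgeR, with Tfe3 at -0.94 (adjusted p = 0.12) and Flcn at -0.54 (0.093). Nor did Rraga (0.82, adjusted p = 0.16) and Lamtor5 (0.47, adjusted p = 0.24). Of the 16 genes, 2 then passed as higher and 0 as lower by edgeR, with 7 at an unadjusted p under 0.05. Without covariates 1 passed as higher and 0 as lower, also with 7 at an unadjusted p under 0.05.

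Among 16 osteoclast-type genes, many of which MITF and TFE3 drive in bone-resorbing cells, 5 rose and 3 fell, with a median log2 fold change of 1.31. Mcoln3 (chr3:146117450-146141806), another lysosomal calcium channel, was at 184, 84.0 and 15.3 CPM in KO and at 0.0198, 0.898, 0 and 0.0162 CPM in WT (log2 fold change 8.47 ± 1.34, adjusted p = 0.0022). Atp6v0d2, the osteoclast form of a proton pump subunit, was at 68.4, 52.0 and 11.9 CPM against 0, 0.807, 0 and 0.469 CPM (6.86 ± 1.70, adjusted p = 0.013). Both genes were close to 0 in WT and clearly read in every KO library. The metalloelastase Mmp12 was at 147, 117 and 81.0 CPM against 32.7, 13, 3.01 and 11.5 CPM (2.93, adjusted p = 0.0066), and osteopontin (Spp1) at 1515, 999 and 624 CPM against 424, 265, 114 and 235 CPM (1.89, adjusted p = 0.011). The gelatinase Mmp9, the integrin Itgb3 and the osteoclast factor Nfatc1 fell, by 2.11, 2.08 and 1.47 on the log2 scale. Members of this list thus moved in both directions. Without KO 3, 5 passed as higher and 1, Mmp9, as lower by edgeR. Itgb3 (-1.48, adjusted p = 0.11) and Nfatc1 (-1.15, adjusted p = 0.15) then did not pass. Without covariates 4 passed as higher and 0 as lower by edgeR, with 8 at an unadjusted p under 0.05.

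Lysosomal enzyme genes moved in both directions. Of 13 cathepsins tested, Ctsb rose and Ctsf fell. Of 38 further hydrolases, 3 rose and 5 fell, beside 8.42% and 6.05% of all genes, with a median log2 fold change of -0.23. The phospholipase-family exonuclease Pld3 was at 2961, 1832 and 946 CPM in KO and at 539, 642, 353 and 475 CPM in WT (log2 fold change 1.81 ± 0.24, adjusted p = 0.00086). Cathepsin B (Ctsb) was at 25723, 15475 and 5999 CPM against 5882, 7827, 4151 and 5712 CPM (1.13, adjusted p = 0.016), with KO 3 inside the WT range. Cathepsin D (Ctsd), at 46197, 26891 and 9535 CPM against 8665 to 17653 CPM, did not pass (0.67, adjusted p = 0.22). Gla, the alpha-galactosidase of Fabry disease, was at 80.2, 54.1 and 34.8 CPM against 13.8, 9.86, 16.3 and 7.10 CPM (2.29, adjusted p = 0.023). The sialidase Neu1 was at 192, 154 and 127 CPM against 117, 126, 88.4 and 104 CPM (0.47, adjusted p = 0.030). The phospholipase Pla2g15, the nuclease Pld4, the phosphatase Acp2 and the sulfatase Arsb fell by 0.94 to 1.44 on the log2 scale, and the legumain gene Lgmn by 1.28. KO 1 was inside the WT range for Pla2g15, Pld4 and Acp2. Without KO 3, 3 hydrolases rose, Pld3 and Gla among them, and 0 fell by edgeR, with 11 at an unadjusted p under 0.05 in either direction. In KO 1 by itself, 25 of the 38 hydrolases lay above all WT libraries, beside 24.6% of all genes, and 3 lay below, beside 18.8%. Of the 13 cathepsins, 9 lay above all WT libraries in KO 1.

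Of 29 lysosomal membrane proteins, 4 rose and 3 fell (median -0.33). Mcoln1 was at 190, 177 and 197 CPM against 126, 132, 103 and 127 CPM (0.60, adjusted p = 0.0071), nearly level across the KO libraries. Its relative Mcoln2 was at 9.99, 8.14 and 3.0 CPM against 0.396, 0.752, 0 and 0 CPM (4.86, adjusted p = 0.047), and lost its call when any 1 of the 7 libraries was left out (adjusted p = 0.055 to 0.11). Without KO 3, Mcoln3 and Cd63 of the 29 membrane protein genes passed as higher and none as lower by edgeR, with 10 at an unadjusted p under 0.05 and a median of 0.01, and Mcoln1 did not pass (0.44, adjusted p = 0.092). The tetraspanin Cd63 was at 1246, 690 and 270 CPM against 220, 242, 154 and 191 CPM (1.62, adjusted p = 0.0089). The nucleoside transporter Slc29a3 fell by 1.63, the sialomucin Cd164 by 1.10 and the arginine sensor Slc38a9 by 0.77. Of 12 progranulin partners, 1 (Ctsb) rose and 4 fell. The progranulin receptor Sort1 was at 121, 153 and 62.5 CPM against 332, 324, 317 and 303 CPM (-1.60, adjusted p = 0.0080), below WT in every library. The other 3 were Lrp1, a receptor for the progranulin-prosaposin complex, the TNF receptor Tnfrsf1b and the progranulin-cutting protease Lgmn (-1.36, -1.38 and -1.28). Without KO 3 none of the 4 passed by edgeR: Sort1 was at -1.27 (adjusted p = 0.076), Lrp1 at -1.19 (0.11), Tnfrsf1b at -1.16 (0.058) and Lgmn at -0.79 (0.31). Among 7 galectins Lgals3 and Lgals1 rose and Lgals4 fell. With KO 3 left out, Lgals1 (1.57, adjusted p = 0.055) and Lgals4 (-2.02, adjusted p = 0.12) did not pass by edgeR.

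The vacuolar ATPase pumps protons into lysosomes and so keeps them acid. Of its subunits, 14 of the 21 tested (24 listed) were higher and 1 lower, with a median of 0.94. Atp6v1a, the catalytic subunit, was at 389, 396 and 466 CPM in KO and at 118, 115, 136 and 180 CPM in WT (1.76 ± 0.29, adjusted p = 0.0022). Atp6v1c1 was at 611, 509 and 594 CPM against 281, 266, 255 and 320 CPM (1.04, adjusted p = 0.0022). Both were even across the KO libraries, while Atp6v1d (223, 238 and 426 CPM against 81.1 to 108 CPM) and Atp6v1e1 (304, 376 and 630 CPM against 136 to 205 CPM) were highest in KO 3. Atp6v0a2, the membrane subunit of Golgi and early endosomes, fell, from 258 to 368 CPM in WT to 93.2, 131 and 61.1 CPM in KO (-1.79, adjusted p = 0.0022). Summed over the 24 subunits the pump was at 5211, 6055 and 8729 CPM in KO and 3684, 3911, 3846 and 4340 CPM in WT. Neurons also carry much of this pump, and the KO order follows their marker sums. In KO 1, 16 of the 21 subunits lay above all WT libraries, beside 24.6% of all genes. Beyond the fits given next, the part of neuronal RNA in these values was not tested. Without covariates 6 subunits were higher and 1 lower, and with the neuron marker sum as a covariate 0 passed by edgeR, with 9 at an unadjusted p under 0.05. Without KO 3, 12 were higher and 1 lower.

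Apoe, Nceh1 and the fatty acid binding proteins Fabp5 and Fabp3 rose. Apoe (chr7:19696109-19699188), the main lipid carrier of the brain, was at 81110, 42354 and 16180 CPM in KO 1 to KO 3 and at 7349, 5305, 4507 and 3279 CPM in WT 1 to WT 4. That is a log2 fold change of 2.96 ± 0.44 (adjusted p = 0.0016), and the lowest KO library held more than the highest WT library. DESeq2 gave 3.01 and did not call it (adjusted p = 0.081). Of 31 genes of lipid transport and storage tested, 7 rose and 2 fell, with a median of 0.31. Nceh1, which frees cholesterol from its esters, was at 257, 186 and 185 CPM against 42.4, 46.7, 55.5 and 58.0 CPM (2.21 ± 0.31, adjusted p = 0.0014). The fatty acid binding protein Fabp5 was at 74.9, 47.1 and 28.5 CPM against 3.37, 0.880, 8.96 and 2.96 CPM (4.08, adjusted p = 0.0016). Fabp3 and the apolipoprotein Apoc4 rose from at most 0.566 CPM in each WT library to 2.14 to 6.57 CPM in KO. The receptor Lrp1 and the triglyceride lipase Pnpla2 fell (-1.36 and -0.78). In the fit without KO 3, 5 of the 31 genes passed as higher and 0 as lower by edgeR, with 15 at an unadjusted p under 0.05. Dgat2, which makes triglyceride, rose chiefly in KO 3 (69.7 CPM, against 14.7 and 19.1 in KO 1 and KO 2 and at most 15.7 in WT). Of 22 cholesterol synthesis genes 4 rose and 0 fell (median 0.72); for Msmo1, Fdft1, Pmvk and Acat2 some KO library lay within the WT range.

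Of 31 genes of disease-associated microglia, 13 rose and 0 fell, with a median of 0.81. Beside Apoe, Gpnmb, Gpx3, Lgals3 and Fabp5, lysozyme (Lyz2) was at 9980, 6464 and 3042 CPM against 1767, 2053, 778 and 1189 CPM (1.99, adjusted p = 0.0029). In KO 1, 28 of the 31 lay above every WT library, beside 24.6% of all genes. In the fit of the Entire libraries of all genotypes 20 of the 31 rose, and 4 passed with the neuron sum as a covariate. Several surface receptors rose with them. Ms4a7 was at 461, 290 and 101 CPM against 42.8, 29.1, 6.69 and 11.8 CPM (3.54 ± 0.54, adjusted p = 0.0017), and Ms4a4a and Ms4a6c also rose, 3 of 9 family members in all. The lipid-binding inhibitory receptor Cd300lf was at 113, 68.6 and 19.3 CPM against 5.19 to 8.06 CPM (2.95, adjusted p = 0.0037). Lilr4b was at 58.6, 45.5 and 31.5 CPM against 12.8, 10.6, 4.11 and 4.07 CPM (2.49, adjusted p = 0.0017), and the beta-glucan receptor Clec7a at 567, 324 and 109 CPM against 87.7, 88.4, 29.7 and 87.1 CPM (1.88, adjusted p = 0.027). Of the 21 CD300 and paired receptors tested, 4 rose and 3 fell, the fourth riser being Clec4d, which had no count in KO 3, and the fallers Sirpa, Clec4a1 and Clec4a3 (-1.11). With KO 3 left out, 4 of the 21 passed as higher and 0 as lower by edgeR, with 6 at an unadjusted p under 0.05. Members of the Ms4a, Lilr and Clec4 families have close copies, and how shared reads were counted is not given, so their split between copies is uncertain.

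Homeostatic genes fell: 20 of 24 were lower and 0 higher, with a median log2 fold change of -1.62. Tmem119, a marker of resident microglia, was at 2446, 1671 and 642 CPM in KO and at 4875, 6674, 4280 and 5318 CPM in WT (-2.11 ± 0.37, adjusted p = 0.0027). Csf1r, the receptor on which microglia depend for survival, was at 6970, 5049 and 1748 CPM against 13650, 18896, 9978 and 14161 CPM (-1.96, adjusted p = 0.0035). The fructose transporter Slc2a5 was at 313, 216 and 74.9 CPM against 831, 1103, 679 and 883 CPM (-2.52, adjusted p = 0.0019). Selplg and Rhob fell by 2.11 and 1.52. KO 3, with the least microglial RNA, was lowest for each of these but Rhob. Without KO 3 the median was -1.29 and 8 of the 24 genes passed as lower. Without covariates 3 passed, and with the neuron marker sum as a covariate 0 passed by edgeR, with 16 at an unadjusted p under 0.05. In KO 1, 17 of the 24 genes lay below every WT library and 2 above, beside 18.8% and 24.6% of all genes. Microglial genes did not all follow: C1qa, a subunit of the first complement component, was at 6247, 3881 and 1427 CPM against 3061 to 4522 CPM (-0.38, adjusted p = 0.51). Fcrls, named after its values were seen, was at 3792, 1837 and 511 CPM against 1396 to 3113 CPM. In KO 1 both genes stood above all WT libraries, while Tmem119 and Csf1r in the same library stood below all of them.

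**Figure D4:**
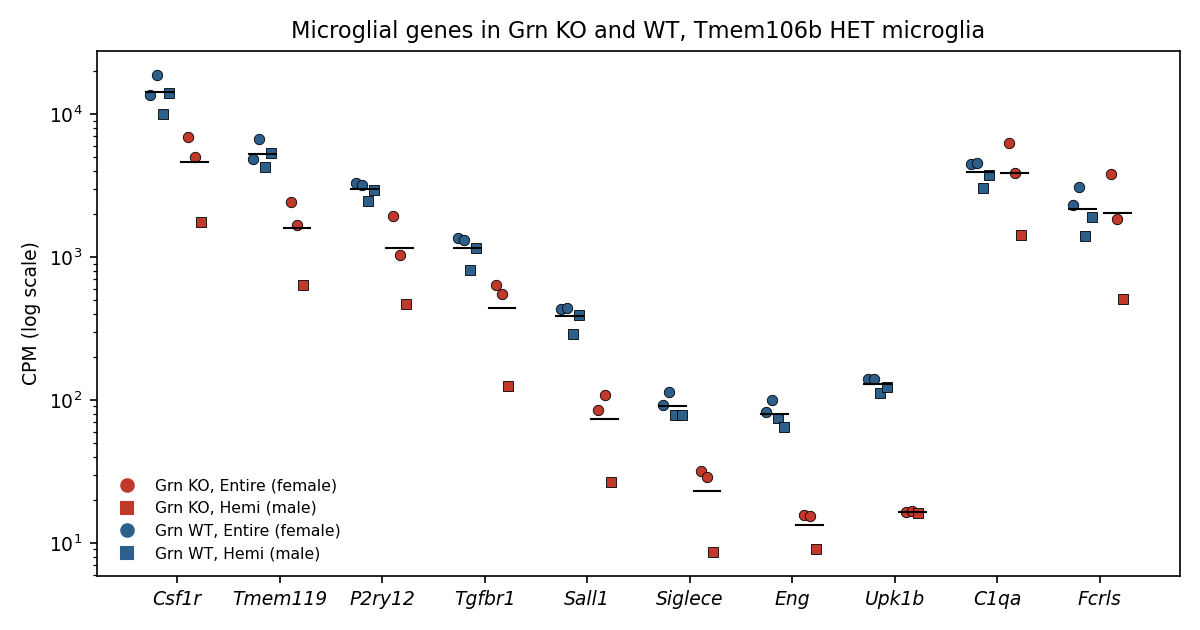
CPM (log axis) of 10 microglial genes, symbols as in the plot of marker RNA. The first 8 genes lie lower in every KO library, whereas C1qa and Fcrls in KO 1 lie above all WT libraries and in KO 3 below them.

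Of 16 transcription factors of microglial identity 11 fell and 1 rose, Bhlhe40 (1.49, adjusted p = 0.031). Sall1 (chr8:89027235-89044162), which represses other macrophage programs in microglia, was at 84.8, 109 and 26.5 CPM in KO and at 434, 439, 288 and 393 CPM in WT (-2.67 ± 0.48, adjusted p = 0.0029). Its relative Sall3 was at 42.7, 45.6 and 7.89 CPM against 102 to 144 CPM (-2.42, adjusted p = 0.011). Mef2a, Ikzf1 and Maf fell by 0.98, 1.46 and 1.31. TGF-beta, freed from its latent form by integrins, maintains this program, and 12 of 21 genes of TGF-beta and BMP signalling fell while 0 rose (median -1.42). Without KO 3 the factors Sall1 and Mef2a and the TGF-beta list's Eng and Smad1 were the members that passed as lower, with medians of -0.84 and -1.04. The coreceptor endoglin (Eng) was at 15.7, 15.4 and 9.07 CPM against 81.8, 100.1, 74.7 and 64.4 CPM (-2.77 ± 0.41, adjusted p = 0.0016), nearly equal in KO 1 and KO 2. The receptor Tgfbr1 was at 642, 554 and 125 CPM against 1360, 1305, 807 and 1153 CPM (-1.72, adjusted p = 0.012), the signal carrier Smad3 at 25.8, 36.9 and 3.50 CPM against 71.8 to 106 CPM (-2.32), and the integrin Itgav at 63.0, 53.7 and 22.8 CPM against 132 to 179 CPM (-1.84). Smad7 and Skil, which TGF-beta induces as its own brakes, fell by 1.49 and 1.42. Eng is also an endothelial gene, and endothelial markers were at 42.7 to 58.0 CPM in KO and 45.9 to 785 CPM in WT. The part of endothelial RNA in the Eng values was not tested.

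Some receptors for nucleotides and sialic acid fell. Of 19 purinergic receptors and related genes 6 fell and 0 rose: P2ry12, which guides processes to ATP, was at 1945, 1032 and 467 CPM against 3322, 3168, 2448 and 2939 CPM (-1.74, adjusted p = 0.0069). The others were P2rx7, Adora3, P2ry13, P2ry6 and the ectonucleotidase Entpd1 (-1.30 to -2.27). Of 8 members of the Siglec family, named for binding sialic acid, 4 fell and 0 rose. Siglece was at 31.7, 28.8 and 8.66 CPM against 92.4, 114, 78.7 and 77.9 CPM (-2.28 ± 0.32, adjusted p = 0.0011), and Siglech, Cd33 and Siglecg fell by 1.92, 1.24 and 3.89. Of 14 genes of TREM2 signalling 7 fell and 1 rose, the exchange factor Vav3 (3.33, adjusted p = 0.020): the kinase Syk was at 114, 108 and 33.7 CPM against 176 to 293 CPM (-1.75, adjusted p = 0.0043) and the phosphatase Inpp5d at 495, 549 and 168 CPM against 967 to 1391 CPM (-1.89, adjusted p = 0.0068). Pik3cg and Plcg2 fell by 1.82 and 1.5. Without KO 3, P2rx7, Adora3, Siglece, Siglech and Syk were the members of these 3 lists that passed as lower, the Siglec Cd22 passed as higher, and Vav3 did not pass. Without covariates Siglece passed as lower, and 0 purinergic and 0 TREM2 signalling genes passed by edgeR, with 6 and 8 at an unadjusted p under 0.05.

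In immune effector lists some genes passed as lower and none as higher by edgeR, beside 6.05% of all genes lower and 8.42% higher. Of 28 interferon response genes 0 passed by edgeR, with 3 at an unadjusted p under 0.05, while DESeq2 called 1 lower (Trim30a) and limma-voom 0. Of 24 cell cycle genes 0 passed by edgeR, with 1 at an unadjusted p under 0.05, and DESeq2 and limma-voom called 0. Of 30 cytokine and NF-kB genes 2 fell (Nfkb1 and Nlrp3, -1.89 and -1.04), of 16 MHC genes 2 fell (H2-DMa and Tap2), and of 8 Fc receptors 1 fell, Fcgrt, at 131, 103 and 43.3 CPM against 182 to 254 CPM (-1.55). Of 19 complement genes 4 fell, among them the receptor subunit Itgam and the C5a receptors C5ar1 and C5ar2. Of 23 immediate early genes, which rise when tissue is dissociated, 3 fell and 1 rose. The riser was the chaperone Hsp90aa1 (1.27, adjusted p = 0.020), and the fallers were Rhob, Jun and Klf2. Jun was at 712, 859 and 384 CPM against 981 to 1330 CPM (-1.01), and Klf2 at 13.5, 24.0 and 5.44 CPM against 26 to 99.4 CPM (-2.27). With KO 3 left out, 0 cytokine, MHC and Fc receptor genes passed by edgeR, with 4, 1 and 1 at an unadjusted p under 0.05. In that fit 1 complement gene and 1 immediate early gene passed as lower, and 0 as higher. With no covariates 0 genes of the cytokine, MHC, Fc receptor and complement lists passed by edgeR, with 5, 0, 1 and 6 at an unadjusted p under 0.05. DESeq2 called 7 complement and 3 Fc receptor genes lower.

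**Figure D5:**
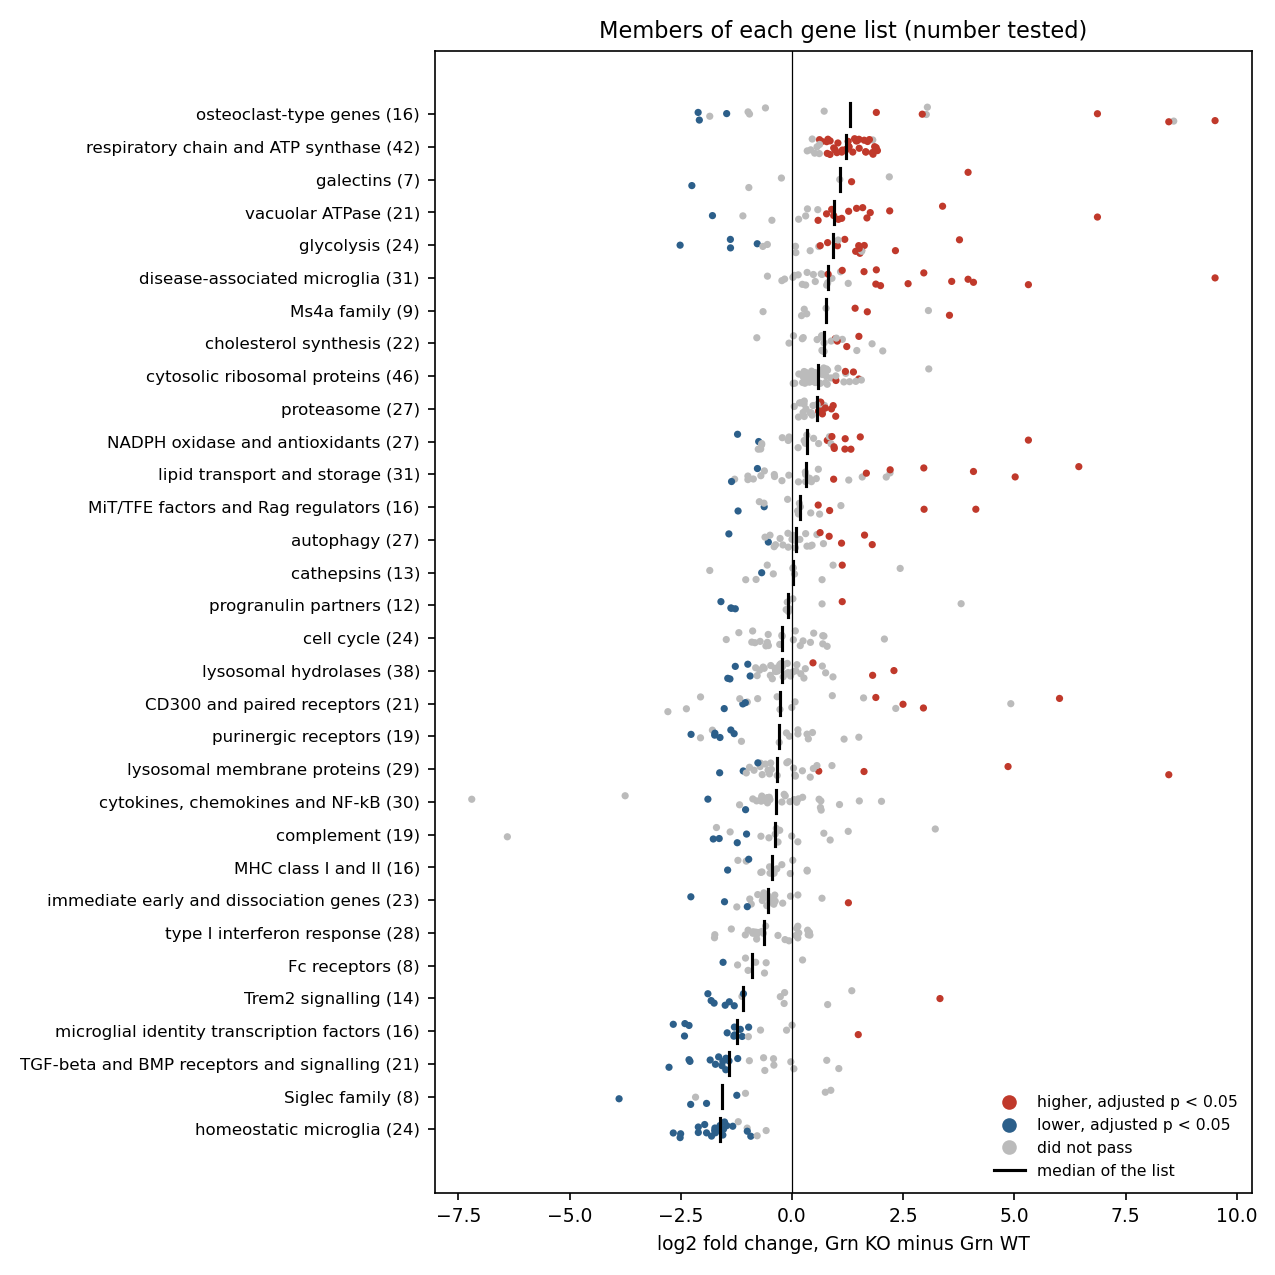
Log2 fold change (Grn KO minus Grn WT) of each tested member of 32 gene lists, with vertical dashes at the list medians, red for higher, blue for lower and grey for genes that did not pass. The respiratory chain lies wholly right of 0 with a median of 1.21, and homeostatic genes lie wholly left of it with a median of -1.62.

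Transcripts of the respiratory chain were higher in KO. All 42 subunits of the respiratory chain and ATP synthase tested had a positive log2 fold change, 34 passed, and the median was 1.21. Ndufa1 of complex I was at 107, 74.6 and 92.4 CPM in KO and 28.3, 21.9, 26.6 and 27.0 CPM in WT (1.89 ± 0.32, adjusted p = 0.0022). Cox4i1 of complex IV was at 555, 525 and 844 CPM against 273, 217, 364 and 320 CPM (1.20, adjusted p = 0.0029), and Cox6c at 101, 113 and 259 CPM against 32.2 to 63.8 CPM (1.66). The ATP synthase subunit Atp5j was at 150, 135 and 254 CPM against 60.9, 58.7, 99.4 and 64.7 CPM (1.41, adjusted p = 0.0024). As shares of the plain library total, the 42 genes summed to 6334, 8242 and 15689 CPM in KO and 4403, 4303, 6197 and 5670 CPM in WT, so that KO 1 and WT 3 lay close together and KO 3, with the most neuronal RNA, lay highest. Scaled by TMM, 36 of the 42 genes in KO 1 lay above every WT library, beside 24.6% of all genes. Without KO 3, 21 of the 42 passed, and with the neuron sum as a covariate 0 passed by edgeR, with 18 at an unadjusted p under 0.05.

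Glycolysis genes moved in both directions. Of 24 genes 12 rose and 4 fell, with a median of 0.91. Without KO 3 the counts were 9 and 1, without covariates 4 and 1 (Slc2a5 the faller in both), and with the neuron marker sum as a covariate 0 passed by edgeR, with 7 at an unadjusted p under 0.05. Pkm, the last step, was at 470, 380 and 440 CPM against 146, 145, 171 and 174 CPM (1.53 ± 0.21, adjusted p = 0.00095), alike in all KO libraries, and Eno1 was at 199, 181 and 209 CPM against 108 to 120 CPM (0.80, adjusted p = 0.0037). Tpi1 was at 461, 425 and 630 CPM against 148 to 230 CPM (1.51), and Aldoa at 1029, 1023 and 1555 CPM against 371 to 595 CPM (1.43). Pfkp ran with the neuron marker sums, at 66.7, 145 and 319 CPM against 19.3, 21.5, 76.3 and 74.9 CPM. The fallers were the fructose transporter Slc2a5, the hexokinases Hk2 and Hk3 (-1.39 and -1.38) and the regulator Pfkfb3 (-0.78). Among 27 genes of NADPH oxidase and antioxidants 9 rose and 2 fell, the risers including Gpx3, thioredoxin (Txn1, 1.19), Sod1 (1.32) and the peroxiredoxins Prdx2 and Prdx5 (1.19 and 0.90). Gclc, the rate-limiting enzyme of glutathione synthesis, fell by 0.75, and the oxidase subunit Ncf1 by 1.22. With KO 3 left out, 7 of these 27 genes passed as higher and 0 as lower by edgeR, with 13 at an unadjusted p under 0.05. Of 27 autophagy genes 5 rose (Sqstm1, Optn, Gabarapl1, Map1lc3a and Gabarapl2) and 2 fell, Ulk2 and Tbk1. In the fit without KO 3, 3 autophagy genes passed as higher and 0 as lower by edgeR, with 11 at an unadjusted p under 0.05. The cargo receptor Sqstm1 was at 919, 861 and 827 CPM against 479, 598, 667 and 545 CPM (0.63, adjusted p = 0.024), and Optn at 50.1, 47.1 and 39.6 CPM against 10.2 to 22.8 CPM (1.63, adjusted p = 0.0066). Of 27 proteasome subunits 9 rose and 0 fell (median 0.56), among them Psmc1, Psmc5 and Psmb1 (0.92, 0.89 and 0.68). Without KO 3, 0 of them passed by edgeR, with 11 at an unadjusted p under 0.05. Of 46 cytosolic ribosomal proteins 4 rose (median 0.59), beside 8.42% of all genes: Rpl23, Rpl41, Rpl38 and Rpl34. Many genes of glycolysis and the ribosome have near-identical pseudogenes, so their counts are uncertain in the way given above.

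Genes of neurons were higher in KO, and among them those of the medial habenula, a small cholinergic and peptidergic nucleus beside the third ventricle. Of 12 neuron markers 10 rose and 0 fell (median 3.50), but only Slc17a7, a glutamate transporter of synaptic vesicles, separated all KO from all WT libraries. The genes Gad1 and Gad2 of GABA synthesis did not pass. Without covariates 0 of the 12 neuron markers passed by edgeR, with 7 at an unadjusted p under 0.05. Rbfox3, a nuclear protein of mature neurons, was at 13.9, 69.8 and 120 CPM in KO and 0.752, 2.13, 11.7 and 16.4 CPM in WT (4.18, adjusted p = 0.0035). Syp, a synaptic vesicle protein, was at 104, 345 and 939 CPM against 14.7, 17.9, 110 and 148 CPM (3.42, adjusted p = 0.0051). For both, KO 1 lay below WT 4. Of 14 medial habenula genes, 13 rose and 13 lay higher in every KO library. Chrnb4, a nicotinic receptor subunit, was at 37.8, 197 and 74.9 CPM against 0.0198, 0, 0 and 0 CPM (adjusted p = 0.0019). Slc5a7, the choline transporter, was at 11.5, 65.4 and 60.6 CPM in KO and had no count in any WT library, at least 3414-fold higher when the floor is set at 3 counts for all 4 WT libraries together (adjusted p = 0.0022). Slc18a3, which loads acetylcholine into vesicles, was at 16.5, 72.8 and 30.3 CPM against 0.0396 CPM in WT 1 and 0 in the others. Chrna3 was at 61.7, 267 and 72.7 CPM against 0.653, 0, 3.89 and 0.986 CPM, Gpr151 at 81.4, 279 and 256 CPM against 0 to 2.30 CPM, and the factor Pou4f1 at 4.35, 15.1 and 11 CPM against at most 0.0531 CPM.

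Set against the neuron marker sum, the summed habenula genes came to 50.5%, 56.9% and 14.7% of it in KO 1 to KO 3 and to 11.4%, 6.1%, 10.3% and 2.3% in WT 1 to WT 4. This ratio was highest in the Entire KO libraries, and it was higher in KO 1 than in WT 3 and WT 4 although KO 1 had the lower neuron marker sum. Necab2, Tesc and Synpr, neuronal genes among the 20 risers of smallest p, were also higher in all KO libraries: Synpr was at 74.7, 278 and 171 CPM against 1.96, 0.678, 2.43 and 1.83 CPM (6.99, adjusted p = 0.0016). How much brain was taken for each library is not given, and its part in the habenular values was not tested.

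Some of the sharpest differences lay outside the lists. Upk1b (chr16:38773184-38800328), a tetraspanin, was at 16.4, 16.8 and 16.1 CPM in KO and at 139, 139, 113 and 124 CPM in WT, a log2 fold change of -3.08 ± 0.39 (adjusted p = 0.00061). It hardly varied among the KO libraries, whose microglia marker sums ran from 11444 to 39179 CPM, and it was 1 of 2 genes that passed in the 7 libraries fitted with no covariate, the other being Chrnb4. Chst2 (chr9:95399292-95406722), which sulfates carbohydrate chains, was at 187, 302 and 176 CPM against 42.6, 29.3, 40.4 and 37.8 CPM (2.63 ± 0.31, adjusted p = 0.00044). The pore-forming gasdermin Gsdme was at 30.7, 54.2 and 56.3 CPM against 10.7 to 19.6 CPM (1.73, adjusted p = 0.0016), and the histone chaperone Nap1l1 at 40.6, 47.2 and 61.9 CPM against 16.4 to 24.0 CPM (1.26, adjusted p = 0.0017). Among genes that fell, the cytokine receptor Lifr was at 21.4, 16.8 and 8.16 CPM against 59.4 to 70.5 CPM (-2.28), the junction protein Tjp1 at 26.8, 32.4 and 18.1 CPM against 106 to 146 CPM (-2.31), and the adhesion receptor Adgrg1 at 371, 372 and 173 CPM against 1108 to 1525 CPM (-2.21). Numb, Srgap2, Rhobtb1, Asap3, Zfp710, Slco4a1 and the crystallin Crybb1 fell by 1.68 to 2.70, each below WT in all 3 KO libraries.

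The same Grn comparison with Tmem106b intact (4 KO, 3 WT libraries, none shared) called 123 genes (0.576%), 91 higher (0.426%) and 32 lower (0.15%). Of these, 113 were also called with Tmem106b heterozygous, 83 higher and 30 lower and all with the same sign, which is 91.9% of the 123 and 3.7% of the 3093. With Tmem106b intact, KO library 1 and WT libraries 1 and 3 were male, and the others female. Library 2 of each group was labelled Hemi and the others Entire. Sex and dissection were thus split otherwise than with Tmem106b heterozygous. The difference between the effects of Grn KO in the 2 Tmem106b backgrounds was tested directly: 0 genes passed by edgeR (0%), with a smallest adjusted p of 0.87, 917 genes (4.29%) had an unadjusted p under 0.05, and DESeq2 called 207. The larger count of calls with Tmem106b heterozygous is therefore not shown to be a larger effect. For the 4 genes that passed with the neuron marker covariate, and for Pld3 and Upk1b, the values in both backgrounds were as follows. Lgals3 had a log2 fold change of 3.96 with Tmem106b heterozygous and 4.08 with it intact (difference -0.12 ± 0.54), Gpx3 5.31 and 5.13 (0.19 ± 0.77), Gpnmb 9.51 and 11.02 (-1.51 ± 1.31), Apoe 2.96 and 3.32 (-0.36 ± 0.60), Pld3 1.81 and 1.93 (-0.12 ± 0.33) and Upk1b -3.08 and -2.55 (-0.52 ± 0.49). The medians of gene lists, whose difference was not tested, stood as follows with Tmem106b heterozygous and intact: homeostatic genes were at -1.62 and -0.85, TGF-beta and BMP genes at -1.42 and -0.48 and the respiratory chain at 1.21 and 0.47, whereas disease-associated genes were at 0.81 and 1.30. With Tmem106b intact 0 of the 42 respiratory chain genes passed by edgeR, with 13 at an unadjusted p under 0.05. In the test of the difference 13 of the 42 had an unadjusted p of the difference under 0.05, beside 4.29% of all genes, with none past adjustment.

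Of the 8 genes with the smallest p for that difference, Chrnb4 had the most reads in Grn KO. With Tmem106b intact it was at 51.1 ± 7.91 CPM in KO (SD, n = 4) and 1.33 ± 1.21 CPM in WT (SD, n = 3). The fitted log2 fold changes were 14.09 with Tmem106b heterozygous, where the WT group held 1 count in all, and 5.40 with it intact (difference 8.69 ± 2.53). Its KO levels with Tmem106b heterozygous, 37.8 to 197 CPM, lie on both sides of that KO mean. Bhlha15 and Rps3a3 were at most 1.13 CPM in each Tmem106b HET library. Popdc2 was at most 1.41 CPM in each Tmem106b HET library, and Ntsr1 was read only in KO 2 and KO 3 (0.939 and 4.48 CPM). Mamdc2 was at 65.8, 39.6 and 7.05 CPM in KO and at 0.554, 2.40, 0 and 2.65 CPM in WT (log2 fold change 4.66). With Tmem106b intact it was at 67.3 ± 10.5 CPM in KO (SD, n = 4) and had no count in the 3 WT libraries, so that the fitted difference of -10.39 is no bound. Tmem158 was at 25.6, 23.2 and 41.6 CPM against 7.96, 4.25, 11.7 and 5.61 CPM (2.13, beside -0.15 with Tmem106b intact), and Nbeal1 at 6.92, 14.7 and 6.58 CPM against 13.3 to 27.8 CPM (-0.98, beside 0.67). Their adjusted p for the difference was 0.87 in each case.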

How the data were processed

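The authors deposited 1 table per library with whole-number read counts per gene and RPKM values. The alignment tool named in the submitters' processing notes is GSNAP and the build GRCm38. Read filters, strand and the treatment of reads shared by gene copies are not given in the sources used here. The deposited counts were used for every test and level, and the deposited RPKM values were not used. Total counts ran from 37.6 to 63.7 M over the 26 libraries, and from 47.5 to 58.3 M over the 7 compared. Of 52636 gene identifiers, 147 were not matched to the annotation, and their counts came to 0.01% or less in each library.

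Levels of genes are counts scaled to the TMM-adjusted library total (CPM), and summed lists use the plain total. Genes were kept by filterByExpr on the 7 genotype groups (21371 genes). All 26 libraries entered 1 edgeR 4.0.16 quasi-likelihood fit (R 4.3.3) with sex and dissection as covariates, and p-values were adjusted by Benjamini-Hochberg over all genes tested, with a threshold of 0.05. The test is two-sided. Exact permutation of 3 against 4 libraries cannot go below a p of 0.0571, so no single value was tested that way. Alternatives were DESeq2 1.42.0, limma-voom (limma 3.58.1), other scaling, filters, covariates and sets of libraries. In simulated counts with 100 genes changed at each size, the test recovered 62 genes at a log2 change of 2 and 82 at 3. There were 3 false calls in all. Apart from the changed genes, taken above a minimum level, each gene was drawn around its mean over all libraries. The simulation thus held no effect of sex, dissection or cell composition, and its false calls do not measure those of the reported comparison. Promoter sequences and gene symbols come from RefSeq and annotation tables of GRCm38, read without liftover.

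The 32 gene lists and 15 marker lists, and the comparison itself, were chosen with earlier results of these data known. Genes named are Grn and Tmem106b, the 20 of smallest p in each direction among those past the threshold that moved by 0.5 or more on the log2 scale and reached 5 CPM in the higher group, up to 6 members of each list by p, up to 3 of each marker list by level, the 8 of smallest p for the difference between backgrounds, and up to 10 in each direction with the same sign throughout. Bhlhe40, Clec4a3, Gabarapl2, Gad1, Gad2, Hk2, Hk3, Itgb3, Mcoln2, Ncf1, Neu1, Nfatc1, Pfkfb3, Pnpla2, Pou4f1, Rbfox3, Slc17a7, Slc5a7, Vav3, Cd22, Smad1 and Fcrls were named after their values were seen. A few genes that the rule names are not reported here.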

Additional observations from a re-analysis of the deposited data

Results flagged for a closer look

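In the 4 WT libraries, 12 of the values tested had 1 library apart from the other 3, with a gap beyond Dixon's 95% limit for 4 values. Chance gives about 1 in 20, and 209 values were tested. WT 3 was highest for Rragd (18.3 CPM), Atp5j (99.4 CPM), Rpl34 (3.91 CPM), Rps3a3 (0.0177 CPM), Klf2 (99.4 CPM) and the endothelial marker sum (785 CPM), and lowest for Clec7a (29.7 CPM). WT 2 was highest for Mcoln3 (0.898 CPM), Itgb3 (132 CPM) and the choroid plexus and ependymal marker sum (441 CPM). WT 1 was highest for Slc18a3 (0.0396 CPM) and Chrnb4 (0.0198 CPM), where the other 3 had no count.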

How the results depend on the processing

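The count of 3093 genes became 3176 with RLE scaling, 2283 with no filter, 3320 with a filter at 1 CPM, 3965 with limma-voom and 3172 with dissection as the only covariate. It moved by more than 1.5 times to 5264 with DESeq2, 1193 in the 7 libraries fitted with dissection, 2 in them with no covariate, 279 with sex only, 224 with no covariates, 4 with the neuron marker sum as a covariate and 0 in the female Entire libraries. Of settings added after seeing the data, Entire libraries of all genotypes gave 1472 and leaving out both KO 3 and WT 3 gave 878. Leaving out 1 library gave 1095 (without KO 3) to 2753 (without KO 1), with 1539 without KO 2, 2029 without WT 2 and 1752 without WT 4. The cause was not tested. The difference between Tmem106b backgrounds had 0 genes in every setting run, leave-one-out included, but 207 with DESeq2 (70 higher, 137 lower). Small values changed sign. Tmem106b went from -0.06 to 0.01 (limma-voom), 0.12 (neuron marker sum), 0.04 (without KO 1), 0.10 (without WT 1) and 0.11 (without WT 3), and lay at -0.23 without WT 4. Fcrls became 0.02 and 0.04, and C1qa 0.14 and 0.16, in the Entire libraries of all genotypes and the female Entire libraries, and C1qa 0.05 with the neuron marker sum. With the neuron marker sum as a covariate, Gad1 became -1.63 and Gad2 -1.75. None of the called genes named here reversed in any setting run. No paired analysis was possible because the labels give no replicate numbers. Depth is not the limit for most genes named, but Fabp3, Apoc4 and Popdc2 rest on a few CPM.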

Other observations

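Calls among markers of other cells are given here, apart from the erythrocyte list, which is not reported. Of 10 border macrophage markers, Ms4a7 rose and the scavenger receptors Stab1 and Cd163 fell, each by 1.51 on the log2 scale. The astrocyte glutamate transporter Slc1a3 fell by 1.67, the endothelial adhesion molecule Pecam1 by 3.41, the granulocyte receptor Csf3r by 1.52 and the immunoglobulin chain Ighm by 1.40. Lhfpl3 of oligodendrocyte precursors rose by 3.46. These genes were named after their values were seen. Slc1a3, Pecam1, Csf3r, Ighm and Lhfpl3 were each the only member of their list that passed by edgeR. Of the 6 neutrophil markers tested 5 had a positive log2 fold change, as had 5 of 9 B cell markers and 5 of 9 precursor markers. The precursor markers summed to 137 to 231 CPM in KO and to 50.2 to 1556 CPM in WT. Of the monocyte, T and NK cell, oligodendrocyte, mural and choroid plexus markers, 0 passed by edgeR, with 0, 0, 3, 1 and 0 at an unadjusted p under 0.05, while DESeq2 called 3 oligodendrocyte and 4 mural markers lower.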
